A study of Mus musculus with 5 samples.

Results

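The BTSC-only TLX sites are the TLX peaks of mouse brain tumour stem cells (BTSC) that overlap no TLX peak of mouse neural stem cells (NSC) by 1 base or more. There were 262 of them among the 1436 TLX peaks called in BTSC, or 18.2%, set beside 7458 TLX peaks called in NSC. The number depends on the overlap asked for: it was 471 where a shared peak needed a reciprocal overlap of 50%, and 442 where it needed summits within 200 bp. Of the 262 sites, 102 lay on chromosome 1 and 160 elsewhere. The remaining 1174 BTSC TLX peaks overlapped an NSC TLX peak and are called shared here. The sites were chosen by the presence of a peak in the BTSC TLX list and its absence from the NSC one, so their number, their strength and their spread over the chromosomes are descriptions.

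TLX, encoded by Nr2e1, is an orphan nuclear receptor that keeps neural stem cells in a proliferating, undifferentiated state and acts largely by recruiting corepressors and histone-modifying enzymes. It binds DNA at sites built on the sequence AAGTCA. Acetylation of histone H3 at lysine 27 (H3K27ac) marks active promoters and enhancers.

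Chromatin immunoprecipitation followed by sequencing (ChIP-seq) was done once for each combination of culture and target. The TLX libraries came from BTSC and from NSC cultures, each transduced with a retrovirus carrying TLX-3xTY1, a tagged TLX pulled down with a TY1 antibody. The H3K27ac libraries came from BTSC and from NSC cultures that were not transduced. A control library without antibody came from cells given the empty vector MSCV-neo, and its cell type is not stated. The TLX signal is therefore that of a virally supplied, tagged protein, no TY1 precipitation from untagged cells was analysed, and TLX and H3K27ac were read in different cells. The growth description is the same for all samples and speaks of primary neural stem cells. The sources used here give no genotype for the tumour cells and no strain or age for the animals. With 1 library per group no comparison between BTSC and NSC has a replicate check, and intervals below are exact Clopper-Pearson 95% intervals that cover counting error only. Of 9 neural stem cell markers, 8 had an H3K27ac peak in BTSC and the same 8 in NSC, with Pax6 the exception. No H3K27ac peak lay at any of 5 microglial or 4 endothelial markers in BTSC or in NSC, while of 5 neuronal markers 1 had a peak in BTSC and 3 in NSC, and of 4 oligodendrocyte markers 1 had a peak in BTSC and 0 in NSC.

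Of the 262 sites, 36 overlapped a promoter window, defined as the 250 bases before to the 50 bases after an annotated transcription start. They touched 45 windows of 43 genes, 35 of them protein-coding. The sequences of 6 windows follow, taken from RefSeq on GRCm38.p6, the assembly of mm10, and written in the direction of transcription. Med25, Snx3, Mtf2 and Nr2e1 are shown because theirs were the protein-coding promoters with the strongest BTSC-only sites, and Fhl2 and Farp2 because theirs were the strongest such sites on chromosome 1 whose windows hold the TLX half-site. Capitals mark AAGTCA, or TGACTT where the match is on the other strand.
Med25 promoter, chr7:44892375-44892674, minus strand: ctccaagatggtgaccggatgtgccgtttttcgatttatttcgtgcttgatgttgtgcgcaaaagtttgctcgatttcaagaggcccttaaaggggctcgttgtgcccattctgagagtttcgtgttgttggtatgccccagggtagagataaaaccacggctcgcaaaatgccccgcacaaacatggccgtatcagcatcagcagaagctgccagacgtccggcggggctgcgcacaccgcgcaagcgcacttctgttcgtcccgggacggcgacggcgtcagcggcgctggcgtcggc
Snx3 promoter, chr10:42501804-42502103, plus strand: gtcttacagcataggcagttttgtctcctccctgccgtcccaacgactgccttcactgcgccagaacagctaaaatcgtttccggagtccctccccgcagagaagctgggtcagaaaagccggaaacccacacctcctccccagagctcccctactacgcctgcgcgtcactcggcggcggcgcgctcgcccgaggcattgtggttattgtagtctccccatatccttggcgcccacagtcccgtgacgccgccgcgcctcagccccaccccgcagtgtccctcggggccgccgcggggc
Mtf2 promoter, chr5:108065424-108065723, plus strand: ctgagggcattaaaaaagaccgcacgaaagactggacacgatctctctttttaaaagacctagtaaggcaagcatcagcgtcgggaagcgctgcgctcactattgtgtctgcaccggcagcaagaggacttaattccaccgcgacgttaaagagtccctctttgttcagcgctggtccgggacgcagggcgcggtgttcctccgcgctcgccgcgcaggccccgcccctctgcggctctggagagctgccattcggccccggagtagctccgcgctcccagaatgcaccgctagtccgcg
Nr2e1 promoter, chr10:42583541-42583840, minus strand: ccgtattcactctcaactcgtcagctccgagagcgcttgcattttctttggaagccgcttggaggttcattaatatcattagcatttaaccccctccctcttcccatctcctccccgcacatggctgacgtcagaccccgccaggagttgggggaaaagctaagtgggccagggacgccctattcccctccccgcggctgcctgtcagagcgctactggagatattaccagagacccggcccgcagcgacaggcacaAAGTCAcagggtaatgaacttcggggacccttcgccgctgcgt
Fhl2 promoter, chr1:43163912-43164211, minus strand: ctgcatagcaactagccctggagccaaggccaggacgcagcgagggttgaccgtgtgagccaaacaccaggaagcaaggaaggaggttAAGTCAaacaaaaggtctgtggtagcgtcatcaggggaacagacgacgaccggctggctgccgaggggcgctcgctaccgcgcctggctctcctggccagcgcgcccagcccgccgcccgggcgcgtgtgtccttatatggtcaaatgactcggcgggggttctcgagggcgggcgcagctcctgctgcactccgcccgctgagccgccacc
Farp2 promoter, chr1:93511854-93512153, plus strand: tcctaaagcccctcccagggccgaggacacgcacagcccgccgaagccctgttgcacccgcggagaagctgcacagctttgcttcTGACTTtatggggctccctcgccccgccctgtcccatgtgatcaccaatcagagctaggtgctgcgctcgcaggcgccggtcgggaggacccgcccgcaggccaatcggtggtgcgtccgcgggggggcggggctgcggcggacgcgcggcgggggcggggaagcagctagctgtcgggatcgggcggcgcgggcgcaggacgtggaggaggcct

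Med25, a subunit of the Mediator complex, had the strongest BTSC-only site at a promoter, at chr7:44892334-44892858. It had a fold enrichment of 6.87 and a −log10 q of 13.43, and lay in H3K27ac of both cultures with similar acetylation folds of 20 in BTSC and 18.52 in NSC. The site of Mtf2, a Polycomb-associated protein, was similar in strength, with a fold of 6.64 and H3K27ac folds of 10.45 in BTSC and 10.87 in NSC. Fhl2, a LIM-domain cofactor, had a site at chr1:43163765-43164574 with a fold of 4.8 and no H3K27ac peak in either culture. It was the 1 site in that state of the 56 near a start, where either end was counted for genes with no annotated start. Farp2 had a site of fold 4.81 with H3K27ac folds of 5.26 in BTSC and 4.04 in NSC.

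AAGTCA or TGACTT stood in 9 of the 45 windows (interval of the share, 9.58% to 34.6%). The same letters stood in 53 of 312 windows at shared sites (17.0%) and in 4961 of all 32817 windows (15.1%), both within that interval. In the Nr2e1 window the match begins 7 bases downstream of the start; in Fhl2 it lies 162 bases upstream and in Farp2 165 bases upstream. The other protein-coding windows with a match were those of Scyl3, Alg5, Exosc8, Rpl18 and Phtf1. Some windows overlap: Nr2e1 and the noncoding Gm38491 hold the same match on opposite strands, as do Alg5 and Exosc8. The interval treats the windows as independent, which they are not. The longer form AAAAGTCA, or TGACTTTT on the other strand, of which AAGTCA is a part, stood in 0 of the 45 windows, which allows a share of up to 7.87%, and in 1.40% of all windows. A match describes the letters of a window and not a bound site, and the windows cover only the sites at promoters.

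Chromosome 1 held an outsized part of the BTSC-only sites. On it, 102 of 297 BTSC TLX peaks had no NSC counterpart, or 34.3% (29.0 to 40.0), against 160 of 1139, or 14.0%, on the other chromosomes. Put the other way round, chromosome 1 held 38.9% of the BTSC-only sites (33.0 to 45.1) and 16.6% of the shared sites (14.5 to 18.9). Without sites of raised background these shares were 22.1% and 6.67%, and with a reciprocal overlap of 50% as the rule chromosome 1 held 26.8% of the BTSC-only sites. Among the autosomes 2 to 19 the share called in BTSC only ran between 4.0% on chromosome 6, with 3 of 75, and 23.9% on chromosome 3, with 16 of 67. No other autosome reached the lower bound of chromosome 1, although the upper bounds of several did.

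**Figure D1:**
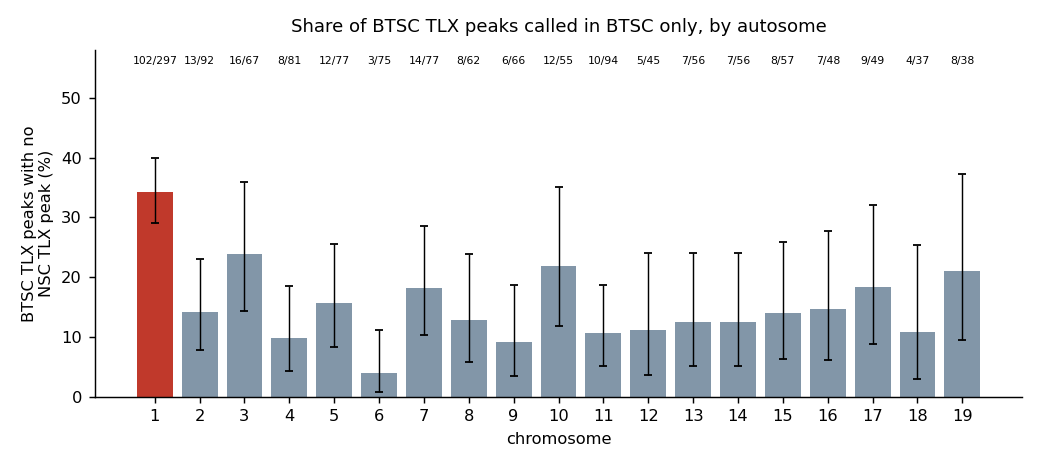
Percentage of the BTSC TLX peaks on each autosome that overlap no NSC TLX peak, with exact 95% intervals as error bars (counting error only) and the counts above each bar. Chromosome 1, in red, stands at 34.3%, and the others lie between 4.0% on chromosome 6 and 23.9% on chromosome 3.

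The sites on chromosome 1 were spread along it. Each of its 20 windows of 10 Mb held at least 1 site and at most 11, the first beginning at 5018609 and the last ending at 193655727. The share was higher on chromosome 1 at each strength of the BTSC peak up to a −log10 q of 20. Of the chromosome 1 peaks, 50.0% under 5, 36.7% between 5 and 10 and 24.3% between 10 and 20 were BTSC-only, against 20.9%, 15.1% and 10.8% on the other chromosomes. At 20 or more the shares were 4.35%, with 1 of 23, on chromosome 1 and 3.6%, with 4 of 111, elsewhere. The intervals overlapped in the stratum of 10 to 20, narrowly, and in that of 20 or more, and did not overlap below 10.

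Several values of the libraries also differed on chromosome 1. Chromosome 1 had 297 TLX peaks in BTSC and 461 in NSC, a ratio of 0.644, whereas the ratio was 0.130 to 0.223 on the autosomes other than 1 and 6 and 0.0975 on chromosome 6. H3K27ac peaks moved the same way, with 2662 in BTSC and 1965 in NSC on chromosome 1, a ratio of 1.35, against ratios of 0.935 to 1.05 on the autosomes other than 1 and 6 and 0.806 on chromosome 6. The local background under TLX peaks, solved from the deposited fold and p, was above its library's level in 71.7% of BTSC peaks and 64.2% of NSC peaks on chromosome 1. On the autosomes other than 1 and 6 it was above that level in 18.1% to 32.7% of BTSC peaks and 15.8% to 25.7% of NSC peaks. Of 188 pairs of peaks with summits within 20 bp, 43 had a raised background in both lists and 16 in 1 list only. Among the 43 the NSC over BTSC background ratio had a median of 1.22, beside 1.26 between the library backgrounds, and 41 lay within 5% of that median. The shares of the BTSC and NSC lists may therefore not be independent, which was not tested. Chromosome 6, with the lowest BTSC-only share, had the second highest shares of raised background among the autosomes, 46.7% of BTSC peaks and 38.4% of NSC peaks. Among peaks whose background stood at the library level, 32 of 84 on chromosome 1 were BTSC-only, or 38.1% (27.7 to 49.3), against 113 of 841, or 13.4% (11.2 to 15.9), on the other chromosomes. The part that the raised background and the larger peak numbers have in the chromosome 1 excess was not tested.

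Outside the autosomes there were 3 sites. The site on the X chromosome, in Gpm6b, had 23 fragments over the library background, a fold of 5.49, and lay in H3K27ac of both cultures. The site on the Y chromosome had a pileup of 37 fragments over a background of 8.99 and lay in H3K27ac of BTSC alone; the NSC list has no TLX peak on that chromosome. The site on an unplaced scaffold had a pileup of 123 over a background of 73.85, and at 1.66 it was the single site with a fold under 2.

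The BTSC-only sites were weaker than the shared ones on the whole. Their fold enrichment had a median of 4.75 (quartiles 4.15 to 5.49, range 1.66 to 8.95), against 5.34 at shared sites. Their median −log10 q was 6.04, against 8.32, and their median width 486 bases, against 547. By q, 2 of the 262 were among the 100 strongest BTSC peaks, 51 had a −log10 q of at least 10 and 182 of at least 5. Chromosome 1 and the rest were similar in this, with median folds of 4.58 and 4.81.

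The deposited fold and p gave a whole number of fragments at the summit for all 262 sites. The median pileup was 21 fragments (quartiles 19 to 26, range 14 to 123), against 24 at shared sites. The library background was 3.37 fragments in BTSC and 4.23 in NSC. At that background a peak needed 14 fragments (a fold of 3.43) to be called in BTSC and 15 (a fold of 3.06) in NSC. At 31 of the 262 sites the pileup was at least 30. The number of fragments in NSC at the sites is not known from a peak list: a site with no NSC peak may have held NSC signal below the calling limit.

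The background was above the library level at 117 of the 262 sites, or 44.7%. On chromosome 1 this held for 70 of 102 BTSC-only sites (68.6%) and 73.3% of shared sites, and on the other chromosomes for 47 of 160 BTSC-only sites (29.4%) and 25.6% of shared sites. The site with the highest pileup apart from the scaffold, at chr16:57391149-57391629 within Cmss1 and Filip1l, had 96 fragments over a background of 21.3.

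**Figure D2:**
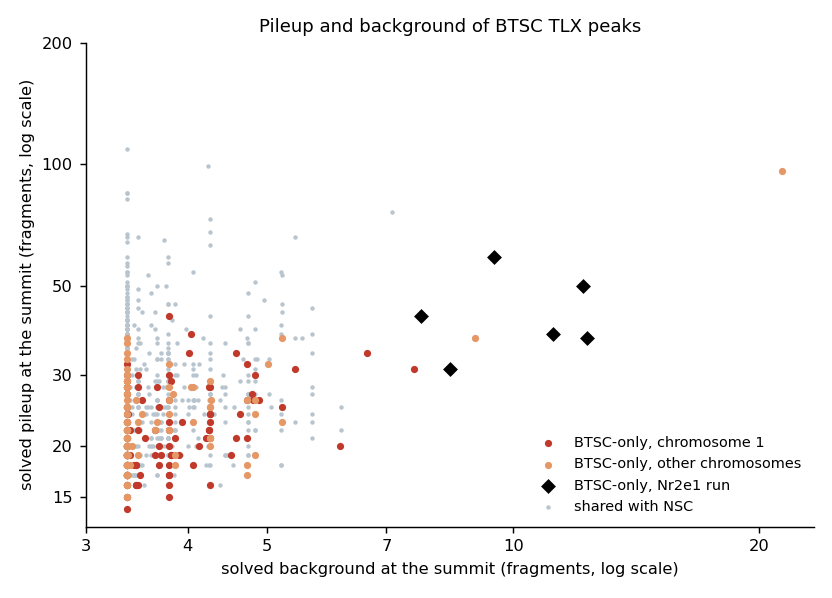
Solved pileup (vertical) against solved background (horizontal), both in fragments at the summit on log axes, for BTSC-only sites on chromosome 1 (red) and elsewhere (orange), the run at Nr2e1 (black diamonds) and shared sites (grey). Peaks with a background of 30 or more or a pileup of 200 or more are not drawn; the 6 sites of the Nr2e1 run sit at backgrounds of 7.71 to 12.31, to the right of nearly all other sites.

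The nearest NSC TLX peak lay at a median distance of 61514 bases (quartiles 18712 to 169340) from a BTSC-only site. It was within 1 kb of 6 sites, within 10 kb of 42 and over 100 kb away from 98. Just inside the rule, the site at Tmem11 missed an NSC peak by 13 bases, the one in Arl4c by 254, the one at Ptma by 562, the one in Sh3bp4 by 586 and the one in Tgfb2 by 831. Just outside it, the shared peaks at Opcml, Lpcat1, Vcpip1 and Bcl9l overlapped an NSC peak by 85 to 192 bases. Folds ran between 3.76 and 6.64 at those 5 BTSC-only sites and between 4.06 and 5.04 at those 4 shared sites.

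H3K27ac, which the rule did not use, was present at most sites. By overlap with the H3K27ac lists, 195 of the 262 sites (74.4%, interval 68.7 to 79.6) lay in acetylated chromatin of both cultures, against a background of 85.9% over all BTSC TLX peaks. Another 44 (16.8%, 12.5 to 21.9) lay in H3K27ac of BTSC alone, against a background of 7.31%. A further 3 (1.15%) lay in H3K27ac of NSC alone, against 0.836%, and 20 (7.63%) lay in none, against 5.92%. Among the shared sites, 61 of 1174 were in H3K27ac of BTSC alone, or 5.20% (4.0 to 6.62), so the intervals of BTSC-only and shared sites did not overlap for this class.

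The class of BTSC alone took a similar share of BTSC-only sites on chromosome 1 as elsewhere. On chromosome 1, 79 of the 102 sites were in H3K27ac of both cultures (77.5%), 17 of BTSC alone (16.7%, 10.0 to 25.3), 0 of NSC alone (up to 3.55%) and 6 of neither (5.88%). On the other chromosomes, 116 of the 160 were in H3K27ac of both (72.5%), 27 of BTSC alone (16.9%, 11.4 to 23.6), 3 of NSC alone (1.88%) and 14 of neither (8.75%). Over all BTSC TLX peaks of chromosome 1 the background was 85.5% for both, 10.1% for BTSC alone, 0.673% for NSC alone and 3.70% for neither. Over those of the other chromosomes it was 86.0%, 6.58%, 0.878% and 6.50% in the same order. In the H3K27ac lists themselves, 23.2% of BTSC peaks overlapped no NSC peak, 38.8% of those on chromosome 1 and 21.8% of those elsewhere. Shared sites stood at 6.67% on chromosome 1, with 13 of 195, and at 4.90% elsewhere, with 48 of 979. The intervals of BTSC-only and shared sites overlapped on chromosome 1 and did not on the other chromosomes.

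**Figure D3:**
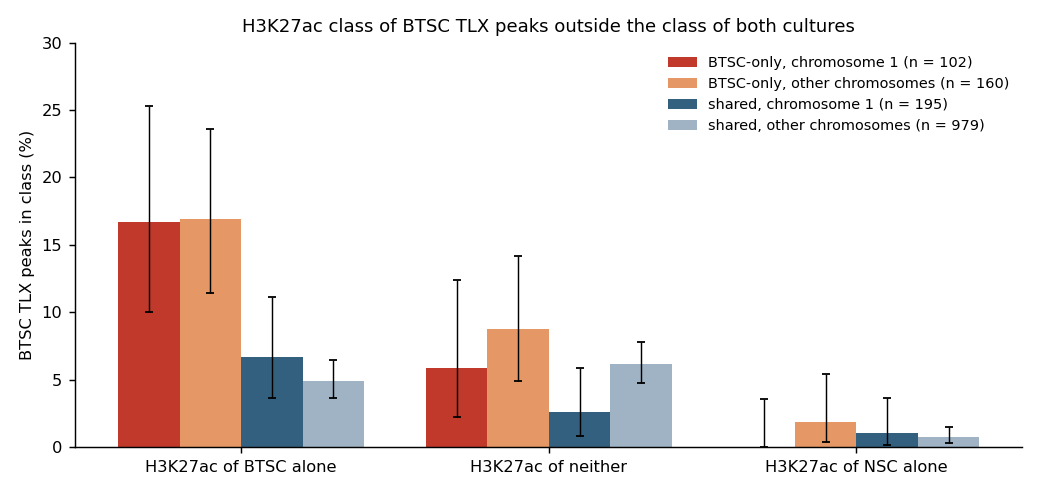
Percentage of BTSC TLX peaks in H3K27ac of BTSC alone, of neither culture and of NSC alone, for BTSC-only and shared sites on chromosome 1 and elsewhere; the class of both cultures is left out of the plot, and error bars are exact 95% intervals for counting error. H3K27ac of BTSC alone held 16.7% and 16.9% of the BTSC-only sites on and off chromosome 1, and 6.67% and 4.90% of the shared sites.

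The share in H3K27ac of BTSC alone was also higher among BTSC-only sites at each strength and position looked at, with intervals that overlapped those of shared sites at a −log10 q of 10 or more and near starts. This class held 12.5%, 19.1% and 17.6% of BTSC-only sites with a −log10 q under 5, between 5 and 10, and of 10 or more, against 1.97%, 3.79% and 8.63% of shared sites. It held 5.36% of BTSC-only sites near a start, 16.5% inside genes and 25.3% between genes, against 0.328%, 6.33% and 7.49% of shared sites. At library background it held 23 of 145 BTSC-only sites (15.9%) and 35 of 780 shared sites (4.49%).

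H3K27ac also covered more of the surroundings in BTSC. Within 5 kb of the summit, 204 of the 262 sites (77.9%, 72.3 to 82.7) had more acetylated bases in BTSC than in NSC, against a background of 63.4% over all BTSC TLX peaks; 37 had more in NSC and 21 were equal. The median cover was 2850 bases in BTSC and 1736 in NSC at BTSC-only sites, and 3352 and 2919 at shared sites. On chromosome 1, 85.3% of BTSC-only and 77.9% of shared sites had more in BTSC, beside a background of 80.5%. On the other chromosomes the shares were 73.1% of BTSC-only and 56.7% of shared sites, beside 59.0%. The intervals of BTSC-only and shared sites overlapped on chromosome 1, at 76.9 to 91.5 and 71.5 to 83.6. They did not on the other chromosomes, at 65.6 to 79.8 and 53.5 to 59.8.

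The 195 sites acetylated in both cultures showed the same direction in the authors' H3K27ac folds, which were computed within each list and not scaled between lists. The median fold of the overlapping peak was 10.49 in BTSC and 6.42 in NSC at BTSC-only sites, and 12.38 and 10.94 at shared sites. It was higher in the BTSC list at 166 of 195 BTSC-only sites (85.1%) and at 62.3% of shared sites. Off chromosome 1 it was higher in BTSC at 94 of 116 BTSC-only sites (81.0%, 72.7 to 87.7) and at 57.9% of shared sites (54.5 to 61.2). On chromosome 1 the shares were 91.1% (82.6 to 96.4) and 84.0% (77.7 to 89.1), with intervals that overlapped.

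**Figure D4:**
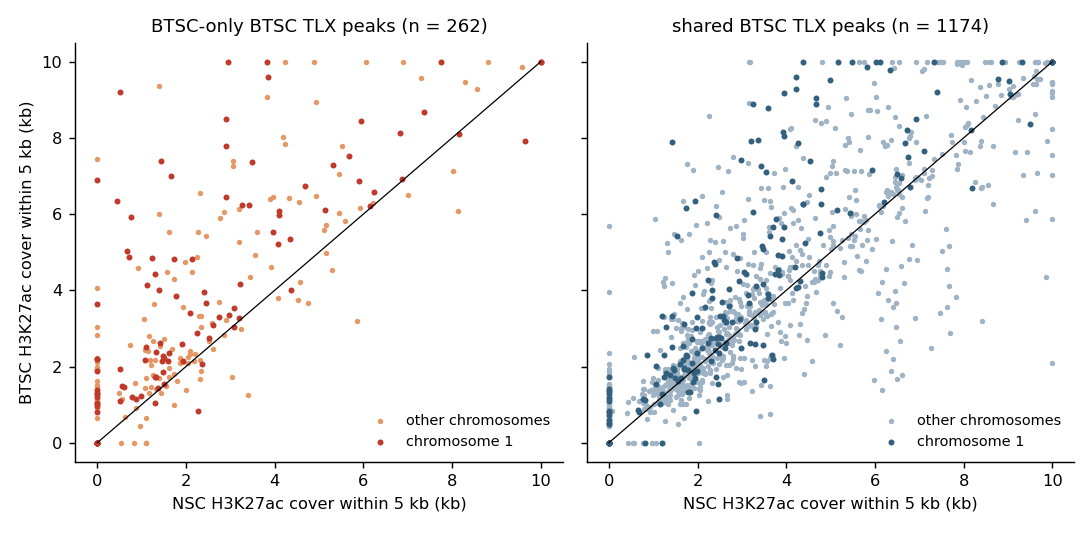
Bases within 5 kb of the TLX summit covered by H3K27ac peaks, BTSC (vertical) against NSC (horizontal), in kb, for BTSC-only sites on the left and shared sites on the right, each point a site and the line marking equal cover. More BTSC-only sites lie above the line (77.9%) than shared sites (60.2%).

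The strongest sites off chromosome 1, ranked by −log10 q, were mostly away from promoters. The first, within Cmss1 and Filip1l, lay in no H3K27ac. Over its raised background of 21.3 fragments it had a fold of only 4.35, with a −log10 q of 27.07. After it and the site 8110 bases upstream of Nr2e1, described below, came a site at chr11:72234044-72234586, 7700 bases from Slc13a5, a citrate transporter. It had 37 fragments over the library background, a fold of 8.70, and H3K27ac folds of 11.92 in BTSC and 2.79 in NSC. The site at chr11:113192110-113192561, nearest to the zinc transporter gene Slc39a11, had a fold of 8.47 and near-equal H3K27ac folds of 9.52 in BTSC and 8.39 in NSC. The site 67472 bases from Gfra2, a receptor subunit for the neurotrophic factor neurturin, had a fold of 8.01. Sites in Baiap2, a regulator of the actin cytoskeleton, and in Cnot8, a deadenylase of the CCR4-NOT complex, had folds of 7.78 and 7.32, both in H3K27ac of both cultures. The site near Fndc1 had a fold of 6.12 and the lower H3K27ac fold in BTSC, 3.28 against 4.23 in NSC. The sites in Glis3 and Prdm11, which encode zinc finger and PR-domain transcription regulators, had folds of 6.89 and 7.10 and no H3K27ac in either culture.

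On chromosome 1 the strongest site, at chr1:43316916-43317645, lay 119008 bases from Fhl2 and 186555 bases from the nearest NSC TLX peak. It had 42 fragments over a background of 3.8, a fold of 8.95 and H3K27ac folds of 3.94 in BTSC and 2.80 in NSC. The site near Mcm3, a subunit of the replicative helicase, had a fold of 7.74 and H3K27ac folds of 10.6 in BTSC and 5.66 in NSC. The site 1206 bases from an end of Eya1, a developmental transcription cofactor and phosphatase, had a fold of 6.28 and H3K27ac folds of 20.21 in BTSC and 5.90 in NSC. The sites near Tnp1 and in Uxs1, an enzyme that makes UDP-xylose, had folds of 7.55 and 7.10 and were acetylated in BTSC alone. The others of the first 10 were in or near Plekha6, Ndufa10, Dennd1b, Sh3bp4 and Uck2, with folds of 6.45 to 6.98, and all 5 lay in H3K27ac of both cultures. In each of these 5 the H3K27ac fold was higher in BTSC.

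Of the 44 sites acetylated in BTSC alone, the strongest were the upstream Nr2e1 site and those of Tnp1 and Uxs1. The next were in Pfkfb3, a regulator of glycolysis, with a fold of 6.87, and 26743 bases from Cxcr4, a chemokine receptor, with a fold of 5.76. Sites of this class followed 543 bases from an end of Grm4, a metabotropic glutamate receptor (fold 5.48), and 239227 bases from Sall1, a zinc finger regulator (6.06). Others lay near Olfml2a (6.18) and near 9530057J20Rik (5.78). Tied for the last place were sites at Rad9a and Ppp1ca, and in Angpt4, each with 25 fragments and a fold of 5.95. The H3K27ac peaks of this class were modest, with folds among these 11 sites between 2.09 upstream of Nr2e1 and 7.64 near 9530057J20Rik.

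The 3 sites in H3K27ac of NSC alone were weak: that in Tll2 had a fold of 4.58, that near Fzd10, a Wnt receptor, 4.35, and that at chr9:3013402-3013975, with Alkbh8 as the gene of nearest end, 3.91. Their H3K27ac folds in NSC were 2.74, 2.48 and 2.24. Of the 20 sites in no H3K27ac, the strongest after Cmss1, Glis3 and Prdm11 were in Gria1, an AMPA receptor subunit, near Tph1, which makes serotonin, in Aff3, in Dnm3, near Atic, near Bdh1 and in Tgfbr3, a TGF-beta co-receptor. Their folds ran between 5.49 near Bdh1 and in Tgfbr3 and 6.87 in Gria1, and their pileups between 23 and 29 fragments.

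Most sites stood alone: 235 of the 262 had no other BTSC-only site within 50 kb, and 2 runs held 3 or more. The larger run, of 6 sites, covered 90882 bases of chromosome 10 from Snx3, a sorting nexin of endosomes, to Nr2e1, the gene of TLX itself, at chr10:42501759-42592640. By distance downstream of the Nr2e1 start, the sites had 59 fragments at −8110 bases, 50 at 294, 31 at 3295, 37 at 28493, 38 at 52354 and 42 at 81113, close to the Snx3 start. The backgrounds under them were 7.71 to 12.31 fragments, 2.29 to 3.65 times the library level, so their folds were moderate, at 2.86 to 5.73. These 6 sites lie next to each other and share that raised background, so they are not independent of each other.

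H3K27ac over the run differed between the cultures. It covered 13611 bases in BTSC and 4691 in NSC. The peak at the Nr2e1 start was 7654 bases wide in BTSC and 3071 in NSC with near-equal folds of 8.06 and 8.08, and the peak at the Snx3 start had a fold of 34.42 in BTSC and 10.58 in NSC. The sites at the Nr2e1 and Snx3 starts were in H3K27ac of both cultures, those at −8110, 3295 and 52354 bases in that of BTSC alone, and that at 28493 bases in neither. The BTSC H3K27ac peaks at the sites of −8110 and 52354 bases were weak. Their folds were 2.09 and 1.94 and their −log10 q 2.39 and 1.81, and the BTSC cover of the run counts them in. The nearest NSC TLX peaks lay 178344 and 280677 bases upstream of the Nr2e1 start, with 23 and 20 fragments over the NSC library background of 4.23. What the raised background contributes to the calls in this run was not tested, and without the run 256 sites remain, of which 39.8% lie on chromosome 1.

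**Figure D5:**
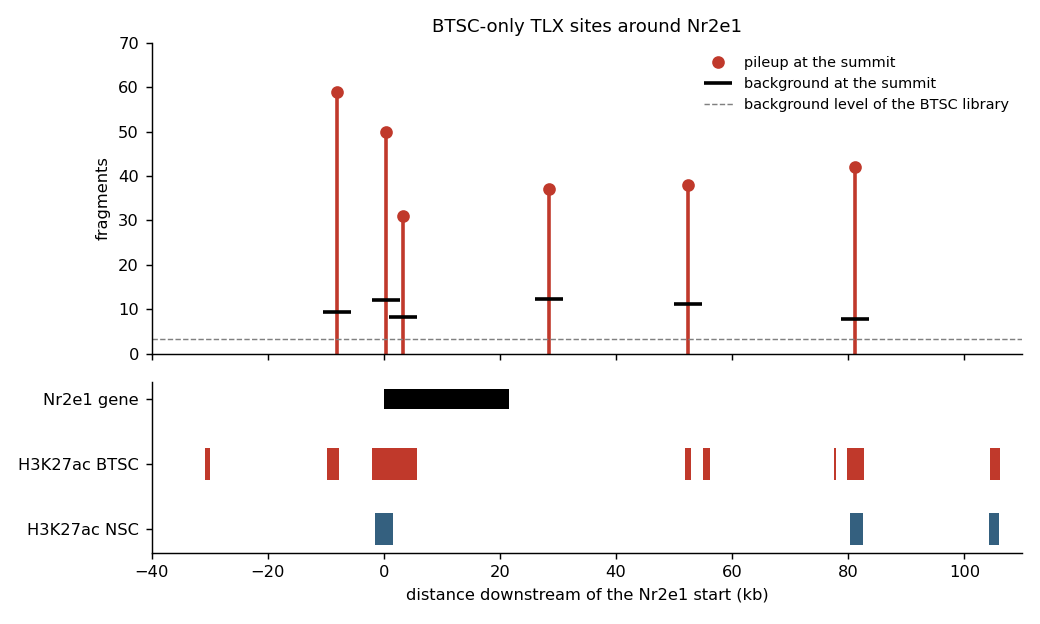
Top, solved pileup (red) and background (black bars) in fragments of the 6 BTSC-only sites around Nr2e1 by distance downstream of its start in kb, with the BTSC library background of 3.37 as a dashed line. Bottom, extent of the Nr2e1 gene and of the H3K27ac peaks of BTSC and NSC; all 6 backgrounds lie above the dashed line, and H3K27ac covers more bases in BTSC.

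The second run, 3 sites within 12441 bases on chromosome 1, had Ackr3 as the gene of nearest end, at 63581 to 75727 bases. Ackr3 is an atypical receptor for the chemokine CXCL12. The sites had folds of 2.94 to 4.08 and pileups of 16 to 20 fragments, near the calling limit. All 3 were in H3K27ac of both cultures, which covered 8811 bases of the run in BTSC and 3800 in NSC. Cxcr4, the gene of another CXCL12 receptor, was the gene of nearest end for 2 further chromosome 1 sites, at 26743 and 67661 bases. Whether any of these sites acts on Ackr3 or Cxcr4 was not tested.

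A larger share of BTSC-only sites than of shared sites lay inside genes. Within 1 kb of a start lay 56 (21.4%, 16.6 to 26.8), inside a gene 127 (48.5%, 42.3 to 54.7) and between genes 79 (30.2%, 24.7 to 36.1), against 26.0%, 37.6% and 36.4% of shared sites. A start is an annotated transcription start or, for genes without one, either gene end, so some of these may not be transcription starts. For sites inside genes the interval of the BTSC-only sites, 42.3 to 54.7, lay above that of the shared sites, 34.9 to 40.5. The share of BTSC-only sites inside a gene was similar on chromosome 1 and elsewhere, at 49.0% and 48.1%. For shared sites it was 32.3% and 38.7%. Taken apart in this way, the intervals of BTSC-only and shared sites overlapped in both groups. They were 39.0 to 59.1 and 25.8 to 39.4 on chromosome 1, and 40.2 to 56.2 and 35.6 to 41.8 elsewhere.

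Among 21900 protein-coding genes, 216 (0.986%) had a BTSC-only site inside them or within 10 kb, and 115 (0.525%) of all had such a site and no NSC TLX peak in that span. The other 101 of the 216 also had an NSC TLX peak, and 38 had a shared BTSC site. Of the 15 gene lists looked at, 7 had a member with a BTSC-only site, and no list had more than 3.

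Among stem cell and TLX genes, Nr2e1 was the single member of 18 neural stem cell genes, and of 18 TLX cofactors and nuclear receptors, with a BTSC-only site. Of the Notch pathway, which maintains neural stem cells, 3 of 17 genes had one. Heyl, a transcriptional repressor that Notch signalling induces, had a site 647 bases from an end of the gene, at chr4:123248876-123249520. It had 27 fragments, a fold of 6.41 and H3K27ac folds of 7.93 in BTSC and 4.11 in NSC. Notch2, a receptor, had one 12524 bases inside the gene with a fold of 5.64 and H3K27ac folds of 15.85 in BTSC and 3.62 in NSC. Maml2, a coactivator of the pathway, had one of fold 3.86. No NSC TLX peak lay in or within 10 kb of Heyl, whereas Notch2 and Maml2 had one.

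Of 12 Hedgehog genes, Gli2, a transcription factor that carries the signal to its targets, had 3 sites, all on chromosome 1 and inside the gene. The site at chr1:119049803-119050547 had a fold of 6.41 and lay in H3K27ac of both cultures. Those at chr1:118980404-118980922 and chr1:118908925-118909354 had folds of 5.64 and 3.34 and lay in H3K27ac of BTSC alone. Gli2 also had an NSC TLX peak in or within 10 kb, and the site of fold 5.64 lay 1650 bases from an NSC peak. Among ligands, Fgf2, a growth factor for neural stem cells, had 1 site of fold 4.58 in no H3K27ac and no NSC TLX peak, and Tgfb2 had 1 of fold 3.76, which lay 831 bases from an NSC peak. Of 14 astrocyte genes, Slc1a2, a glutamate transporter, had a site of fold 6.87, with H3K27ac folds of 8.41 in BTSC and 5.74 in NSC. Nfib, a transcription factor of gliogenesis, had one of fold 4.79. Slc1a2 and Nfib each also had an NSC TLX peak in or within 10 kb, and Nfib had a shared BTSC site.

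None of the genes in the lists for the Wnt pathway (18 genes), proliferation (18), tumour suppressors and cell cycle inhibitors (15), the oligodendrocyte lineage (14), neurons (16), microglia (12), endothelium (12) or housekeeping (12) had a BTSC-only site within 10 kb. The lists were chosen with results known and no test was made over them, so their counts stand beside the 0.986% of all protein-coding genes as a description.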

How the data were processed

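The deposited files are peak lists on mm10, per the submitters' processing notes, which name bcl2fastq 2.17.1.14, Bowtie and ChIPseeker; the peak caller is not given in the sources used here. Per the file layout, each line of the authors' lists gives a score, a fold enrichment, a −log10 p, a −log10 q and, for TLX, a summit; each list comes from 1 library. Depth is unknown. The authors' score was not used; their p-values served to solve the pileup, and their q-values to rank and filter peaks within a list.

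Peaks overlapped where they shared at least 1 base. The pileup and background of each TLX peak were solved from its deposited fold, (pileup + 1) over (background + 1), and its −log10 p under a Poisson model, with a tolerance of 0.001; whole pileups came out for 99.7% of BTSC and 99.9% of NSC peaks. Overlap, cover and solving were tested on simulated data. Genes and promoter windows came from RefSeq GRCm38.p6. For the 4408 protein-coding genes with no annotated start, either gene end was counted as a start. Each site was named by the gene that holds it, else by the gene of nearest end. Named sites were the 10 of highest −log10 q on chromosome 1 and the 10 elsewhere, the leading 10 of each H3K27ac class other than both, runs of 3 or more, members of the lists, and the 5 nearest the rule's limit on either side. A few sites that this rule names are not reported here. A raised background is one more than 0.01 fragments above the library level.

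Members, lists and comparisons were chosen with earlier results of these data known. With 1 library per group no test was made. Python 3.11.15, numpy 2.4.6, pandas 2.3.3, scipy 1.17.1 and matplotlib 3.10.9 were used.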

Additional observations from a re-analysis of the deposited data

How the results depend on the processing

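Of 72 alternatives run, 61 left their result within its counting interval, within its spread or, for a count, within 1.5 times, and 11 did not. With a reciprocal overlap of 50% there were 471 sites, 26.8% of them on chromosome 1; with summits within 200 bp there were 442 and 31.0%; without sites of raised background, an alternative chosen after seeing the data, there were 145 and 22.1%, beside 6.67% of shared sites of library background on chromosome 1. With H3K27ac peaks of −log10 q of at least 5, 59.5% of sites were in H3K27ac of both cultures, 22.1% of BTSC alone and 17.2% of neither, and 4.68% of shared sites were in that of BTSC alone. With a window of 2.5 kb, 27.1% of sites lay at a start. With neighbours within 100 kb, 4 runs held 3 or more sites. The first 2 and the stricter H3K27ac lists change by construction which peaks count as overlapping. No replicate could be left out, and the motif search around summits was not run. No paired analysis was possible because each group has 1 library. With depth unknown, an NSC signal below the calling limit was not detectable.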
